A study of Mus musculus with 13 samples.

Results

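The genes described here are the 3 alpha subunits of the hypoxia-inducible factors (HIFs), their shared partner and the enzymes that control them: Hif1a, Epas1 (which encodes HIF-2 alpha), Hif3a, Arnt, Egln1, Egln2, Egln3, Vhl and Hif1an. They were taken by symbol from a table of 54513 genes, and all 9 were present and passed the filter on low counts that left 20468 genes for testing. The libraries came from formalin-fixed, paraffin-embedded lung of male C57Bl/6 mice, aged 7 to 8 weeks, at day 21 after bleomycin, a drug that injures the lung and is used to model its fibrosis. Each library was made from 8 ng of total RNA of a 10 µm coronal section. Of 13 libraries, 5 were from mice given saline and 4 from mice given bleomycin, all in batch 1, and 4 more were from mice given bleomycin in batch 2, which held no saline library. No allele or further agent is given for any group.

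A HIF is a pair of proteins, an oxygen-controlled alpha subunit and the constant partner ARNT, that binds DNA and switches on genes for oxygen supply and for energy without oxygen. In oxygen, the prolyl hydroxylases encoded by Egln1, Egln2 and Egln3 mark the alpha subunit on prolines, the VHL protein recognises the mark, and the alpha subunit is destroyed. Hif1an encodes a hydroxylase that acts on an asparagine and blocks binding of coactivators. Control thus acts largely on protein, which RNA counts do not measure. HIF-1 alpha is made in most cells and is prominent in activated macrophages, whereas HIF-2 alpha is typical of endothelium, and in lung also of alveolar epithelium.

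The control point is visible in the coding sequence, and it is shown here because Hif3a differed from Hif1a and Epas1 in how often it was found. The hydroxylated proline ends a motif of leucine, any residue, any residue, leucine, alanine and proline. In the longest coding frames of GENCODE M21 (build GRCm38), a search found this motif at 2 places in Hif1a, 2 in Epas1 and 1 in Hif3a. The windows below are 30 bases of coding strand, 5′ to 3′, with the codon of that proline in capitals and its position counted from the first methionine.
Hif1a, proline 402: gatgctctcactctgctggctCCAgctgcc
Hif1a, proline 577: ttagatttggagatgctggctCCCtatatc
Epas1, proline 405: gaggaactggcccagttggccCCCacccca
Epas1, proline 530: ctggatttggagaccttggcaCCCtacatc
Hif3a, proline 489: ctggacttggagatgctggccCCCtacatc
The later windows resembled each other: Hif1a and Epas1 shared 23 of 30 bases, and each shared 25 with the window of Hif3a. The first windows of Hif1a and Epas1 shared 16. The motif search says nothing about proline motifs of other spelling in Hif3a.

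Total counts were 9527580 to 26043735 in the saline libraries, 21727502 to 28885129 in batch 1 bleomycin and 6337147 to 12982422 in batch 2. The lung markers Sftpc, Sftpb, Scgb1a1, Ager and Nkx2-1 were all detected, with summed levels of 10238 to 17296 CPM in saline, 3931 to 5995 in batch 1 bleomycin and 4847 to 11523 in batch 2. CPM are counts per 1000000 counts, with library totals scaled by TMM factors. Nothing in the labels says that libraries are separate animals, so p-values measure the spread between these libraries, which may be technical. The title of bleomycin replicate 8 calls it a control, while its treatment label and library name say bleomycin, and it was kept as bleomycin. The numbers in the library names run separately for saline and for batch 1 bleomycin. Their meaning is not given, and a difference between such sets cannot be told apart from treatment.

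In batch 1, bleomycin lungs held 53.1% of the saline level of Epas1 RNA and 204% of the saline level of Hif1a RNA. Among the regulators, Egln1, the gene of the main oxygen-sensing hydroxylase, fell to 77.9%. In edgeR's quasi-likelihood test with Benjamini-Hochberg adjustment over all genes, 1 of the 9 genes rose (Hif1a), 2 fell (Epas1 and Egln1) and 6 did not pass an adjusted p of 0.05. Across all tested genes, 30.9% passed, 17.5% as higher and 13.4% as lower, so 3 of 9 is close to the share of the whole table.

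**Figure D1:**
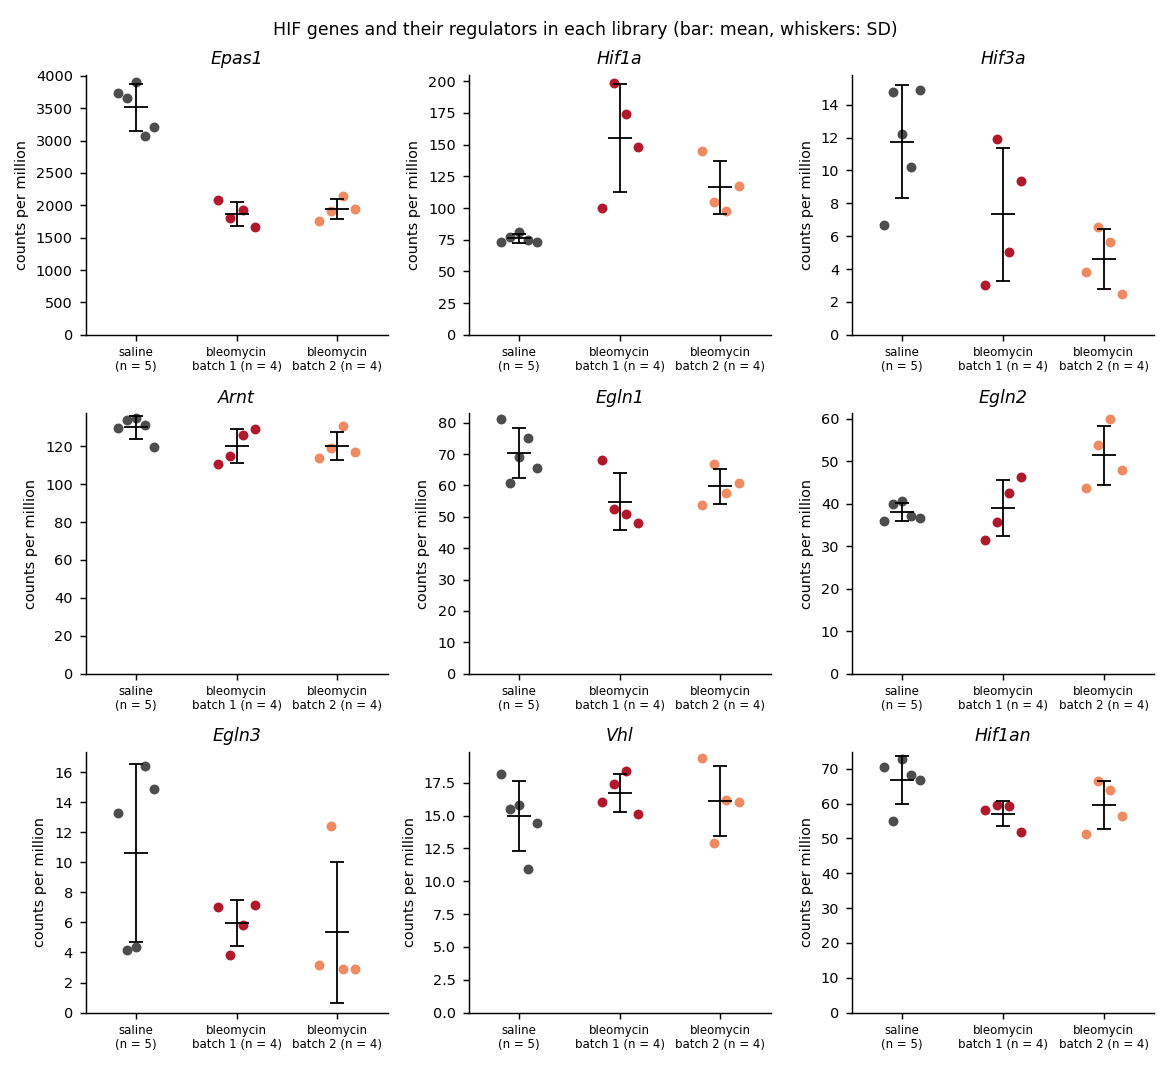
CPM (y axis, from 0) of each gene in each library, 1 point per library, for saline (grey, n = 5), batch 1 bleomycin (red, n = 4) and batch 2 bleomycin (orange, n = 4), with the mean as a bar and the SD as whiskers. Epas1 in every bleomycin library lies below, and Hif1a above, all saline libraries, while Egln3 splits the saline libraries into levels near 4 and above 13.

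Epas1 was the most abundant of the 9 genes by far. Per kilobase of exon its saline level was 629 ± 64.3 CPM (SD, n = 5), which ranked 13th of 14811 protein-coding genes with a known length. Batch 1 bleomycin gave 334 ± 31.9 CPM per kilobase (n = 4, rank 25) and batch 2 gave 347 ± 28.4 (n = 4, rank 28). The saline libraries, replicates 1 to 5, read 3736, 3651, 3908, 3070.2 and 3203 CPM. Batch 1 bleomycin, replicates 5 to 8, read 2076, 1797, 1931 and 1661 CPM. Batch 2, replicates 1 to 4, read 1758, 1916, 2145 and 1943 CPM. All 8 bleomycin libraries therefore lay below the lowest saline library. Of the tested genes, 6.54% had every bleomycin library of both batches below every saline library. The fitted log2 change in batch 1 was -0.91 (SE 0.10, edgeR adjusted p = 1.44e-05), and both bleomycin batches differed by 0.06 (SE 0.11, adjusted p = 0.867).

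Hif1a moved the other way from a far lower level, 12.9 ± 0.559 CPM per kilobase in saline (rank 2655). The saline libraries were tight, at 73.4, 77.5, 81.1, 74.4 and 73.6 CPM. Batch 1 bleomycin was wider, at 100.1, 199, 174 and 148 CPM, and batch 2 read 145, 105, 97.9 and 117 CPM. Every bleomycin library again stood clear of the saline range, here above it, which held for 9.37% of tested genes. The log2 change in batch 1 was 1.03 (SE 0.16, edgeR adjusted p = 0.000214). Batch 2 minus batch 1 bleomycin was -0.42 on the log2 scale (SE 0.17, edgeR adjusted p = 0.249), a difference that did not pass. Without bleomycin replicate 5, the lowest of batch 1, that difference was -0.58 and did pass (adjusted p = 0.0295). By rank per length Hif1a stood at 1005 in batch 1 bleomycin and at 1569 in batch 2.

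If bleomycin replicate 8 is placed with saline, as its title has it, neither change passed: Epas1 gave -0.72 (edgeR adjusted p = 0.0666) and Hif1a 0.84 (adjusted p = 0.0717). Only 645 genes passed in the whole table with that placement, against 6319. The library itself had the lowest Epas1 level of all 13, and its Hif1a level lay above every saline library. With it left out, Epas1 changed by -0.89 (adjusted p = 3e-05) and Hif1a by 1.02 (adjusted p = 0.00129).

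Hif3a, which encodes an alpha subunit whose forms include inhibitors of the other HIFs, was scarce, at 1.75 ± 0.513 CPM per kilobase in saline (rank 10864). Its saline libraries read 6.69, 14.8, 12.2, 10.2 and 14.9 CPM. Batch 1 bleomycin read 3.01, 11.9, 5.04 and 9.34 CPM, overlapping saline, and batch 2 read 3.82, 6.53, 5.66 and 2.49 CPM, all below saline. The position of batch 2, which held no saline library, cannot be told apart from a batch difference. How many of all tested genes share it was not computed. The log2 change in batch 1 was -0.67 (SE 0.37, edgeR adjusted p = 0.187), which did not pass, and the approximate 95% range from its SE was 0.378- to 1.04-fold. Batch 2 counts were only 17 to 67 per library.

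Arnt, the partner that every alpha subunit needs to bind DNA, varied little. It read 129.8, 134, 135, 131 and 119.6 CPM in saline, 110.5 to 129 in batch 1 bleomycin, and 114, 119, 130.4 and 117 in batch 2. The groups overlapped, and the log2 change of -0.12 (SE 0.08) did not pass (edgeR adjusted p = 0.284). The approximate 95% range of its fold change was 0.831 to 1.03. Per kilobase, Arnt at 16.2 ± 0.768 CPM lay above Hif1a in saline, and at 15.0 ± 1.10 it lay below Hif1a (26.3 ± 7.16) in batch 1 bleomycin.

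Because both genes of a ratio share 1 library, a ratio does not depend on library scaling, and it shows unequal change only. Epas1 CPM were 41.2 to 50.8 times Hif1a CPM in the saline libraries, 9.04 to 20.7 times in batch 1 bleomycin and 12.1 to 21.9 times in batch 2. The mean log2 ratio was 5.52 ± 0.12 (SD, n = 5) in saline, 3.63 ± 0.52 (n = 4) in batch 1 bleomycin and 4.07 ± 0.36 (n = 4) in batch 2. The batch 1 difference of -1.90 had an exact two-sided permutation p of 0.00794 (0.0106 adjusted over 4 ratios), the smallest that the assignments of 4 and 5 libraries can give. Every batch 1 bleomycin library already lay below saline in Epas1 and above saline in Hif1a. This p was therefore fixed by the values of the single genes and is no separate support. Hif3a relative to Hif1a fell from -2.74 ± 0.45 to -4.52 ± 0.60 on the log2 scale, a difference of -1.79 with the same exact p of 0.00794 (adjusted 0.0106). Batch 2 gave -4.69 ± 0.77. Hif3a itself changed by -0.67 in batch 1 (edgeR adjusted p = 0.187), which did not pass, while Hif1a rose by 1.03. The lower ratio of Hif3a to Hif1a thus does not show a fall of Hif3a on its own.

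**Figure D2:**
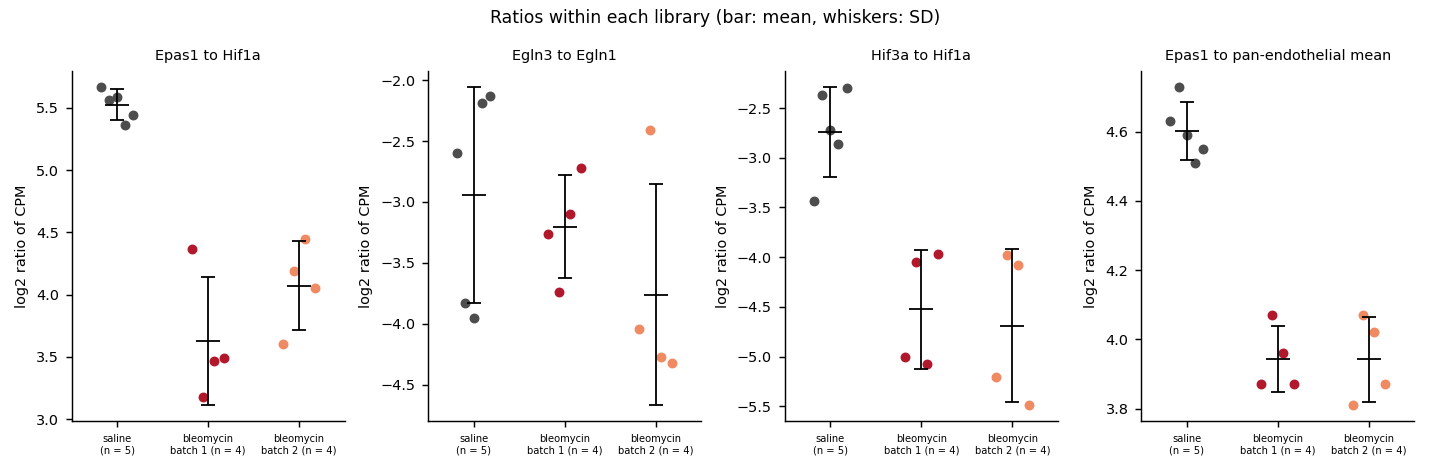
Log2 ratio of CPM within each library (y axes do not start at 0) for 4 pairs, 1 point per library, with the mean as a bar and the SD as whiskers, for saline (grey), batch 1 bleomycin (red) and batch 2 bleomycin (orange). The ratios of Epas1 to Hif1a, of Hif3a to Hif1a and of Epas1 to the pan-endothelial mean are lower in all 8 bleomycin libraries than in any saline library, and Egln3 to Egln1 overlaps. The pan-endothelial mean is the mean of the log2 CPM of 14 markers.

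In whole lung, fewer cells of a type and less RNA per cell cannot be told apart, so levels of cell markers stand beside these changes. Of 14 pan-endothelial markers, 5 fell and 9 did not pass, with a median log2 change of -0.20 against 0.03 over all tested genes. Beside these and the later marker counts, 17.5% of all tested genes rose and 13.4% fell. None of the 14 was at 0 in every library. Their summed level was 3223 to 3904 CPM in saline, 2274 to 2929.8 in batch 1 bleomycin and 2406 to 2765 in batch 2. Epas1 fell relative to the pan-endothelial mean, taken as the mean of the log2 CPM of these 14 markers. Its log2 level minus that mean was 4.60 ± 0.08 in saline, 3.94 ± 0.09 in batch 1 bleomycin and 3.94 ± 0.12 in batch 2. Such a mean gives each marker equal weight, and a ratio to their summed level was not computed. The difference of -0.66 had an exact two-sided permutation p of 0.00794 (adjusted 0.0106). With bleomycin replicate 8 placed in saline it was -0.51 and did not pass (adjusted p = 0.0635).

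The markers were not uniform. The receptor phosphatase Ptprb (-0.77, edgeR adjusted p = 2.88e-05), the angiopoietin receptor Tek (-0.80, adjusted p = 7.76e-05) and the TGF-beta co-receptor Eng (-0.52, adjusted p = 0.00272) fell. The junction gene Cdh5 gave -0.16 (adjusted p = 0.255), which did not pass. Of 8 markers of aerocytes, the thin capillary cells of gas exchange, 7 fell, and their summed level went from 668 to 825 CPM in saline to 326 to 455 in batch 1 bleomycin and 388 to 495 in batch 2. Of 8 general capillary markers 4 fell and 1 rose, and of 9 alveolar type 2 markers 5 fell, 3 without bleomycin replicate 8. Among 8 alveolar type 1 markers, 4 fell and 1 rose (median -0.49). The summed level of the type 1 markers was 2507 to 3127 CPM in saline, 1159 to 2014 in batch 1 bleomycin and 1776 to 2396 in batch 2. Of 10 arterial and venous markers, by contrast, 5 rose and 3 fell (median 0.57), and their summed level was 647 to 808 CPM in saline, 742 to 1244 in batch 1 bleomycin and 873 to 1213 in batch 2. The part of cell numbers in the lower Epas1 level was not tested.

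Over the 13 libraries, the 4 genes of at least 5 CPM whose centred log2 levels lay nearest to Epas1 were Ntn4, Rnase4, Ptprb and Ctdspl, at root mean square differences of 0.10, 0.10, 0.10 and 0.11. The median over 13033 genes was 0.54, and Epas1 varied around its own mean by 0.45. In batch 1 these neighbours changed by -0.81 (Ntn4), -0.91 (Rnase4), -0.77 (Ptprb) and -0.98 (Ctdspl). They were picked for nearness over the same libraries, so changes like that of Epas1 follow from the choice. Ptprb is also among the endothelial markers above.

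Beside the rise of Hif1a stood markers of macrophages and monocytes, of which 11 of 12 rose (median log2 change 1.89) and none was at 0 in every library. Their summed level was 1548 to 1916 CPM in saline, 2189 to 2515 in batch 1 bleomycin and 2647 to 3121 in batch 2. Most of that sum was Lyz2, a lysozyme gene that is also in the alveolar type 2 list, with means of 1434, 1463 and 2112 CPM. Its log2 change of 0.03 in batch 1 did not pass (edgeR adjusted p = 0.888). Of 9 fibroblast markers 4 rose and 3 fell, and their summed level went from 2075 to 2389.8 CPM in saline to 3743 to 10577 in batch 1 bleomycin and 5513 to 10949 in batch 2. The higher sum came from the collagen genes Col1a1, Col1a2 and Col3a1. Their means were 276, 308 and 359.8 CPM in saline and 2593, 1746 and 2300.1 in batch 1 bleomycin. Of the other markers, Lum rose from a low level, Tcf21, Inmt and Npnt fell, and Pdgfra and Dcn did not pass. The part of macrophages or fibroblasts in the Hif1a level was not tested.

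Of the 3 prolyl hydroxylase genes, Egln1 had the highest level per kilobase in saline, 19.6 ± 2.23 CPM, followed by Egln2 at 13.6 ± 0.749 and Egln3 at 4.00 ± 2.22. Egln1, the main oxygen sensor and itself known as a HIF target, read 81.2, 60.8, 69.2, 75.2 and 65.7 CPM in saline and 68.1, 52.5, 50.9 and 47.9 CPM in batch 1 bleomycin. Replicate 5 lay within the saline range and the other 3 lay below it. Batch 2 read 53.8, 66.7, 57.5 and 60.8 CPM, of which 2 lay below the saline range. The log2 change of -0.36 (SE 0.12) passed with an edgeR adjusted p of 0.0251. The call was lost without bleomycin replicate 6 (0.0667), bleomycin replicate 7 (0.0756) or saline replicate 1 (0.0631), and with replicate 8 placed in saline (-0.22, adjusted p = 0.378).

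Egln2 read 35.9, 40.0, 40.6, 37.2 and 36.6 CPM in saline and 31.5, 35.6, 42.4 and 46.2 CPM in batch 1 bleomycin. The batch 1 means were nearly equal, with a log2 change of 0.03 (SE 0.12, edgeR adjusted p = 0.866), and the sign turned with RLE or DESeq2 scaling (-0.02 each). Its approximate 95% range was 0.868- to 1.20-fold. Batch 2 read 43.7, 53.8, 59.8 and 48.0 CPM, all above saline. As batch 2 held no saline library, that position cannot be told apart from a batch difference. The share of all tested genes placed so was not computed. Against batch 1 bleomycin, batch 2 was 0.40 higher on the log2 scale (SE 0.13, edgeR adjusted p = 0.135), which did not pass. The batch difference passed without bleomycin replicate 8 (0.49, edgeR adjusted p = 0.0384).

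By batch, 0 of the 9 genes passed in edgeR and 0 in DESeq2, with Hif1a and Egln2 alone at an unadjusted edgeR p under 0.05. Of all tested genes, 1.68% differed between the bleomycin batches.

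**Figure D3:**
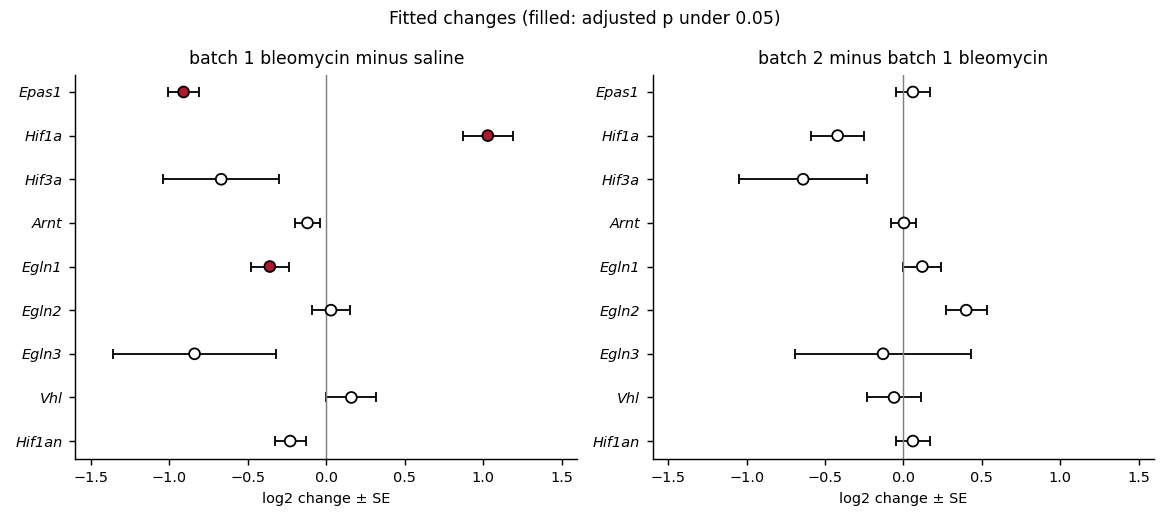
Fitted log2 change (x axis) of each gene with its SE as whiskers, for batch 1 bleomycin minus saline (left) and batch 2 minus batch 1 bleomycin (right), with filled points where the adjusted p is under 0.05. Epas1 (-0.91), Hif1a (1.03) and Egln1 (-0.36) are filled on the left, and no gene is filled on the right.

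Egln3, the hydroxylase best known for strong induction by hypoxia and expressed in muscle, varied widely within saline and within batch 2. Its level was 10.6 ± 5.91 CPM in saline, 5.96 ± 1.55 in batch 1 bleomycin and 5.35 ± 4.73 in batch 2. In saline it read 13.3, 16.4 and 14.9 CPM in replicates 1, 4 and 5, but 4.17 and 4.38 in replicates 2 and 3. Batch 1 bleomycin read 7.00, 3.82, 5.83 and 7.19 CPM. In batch 2, replicate 2 read 12.4 CPM and the others 3.16, 2.87 and 2.93. The log2 change of -0.84 (SE 0.52) did not pass (edgeR adjusted p = 0.248), and its approximate 95% range was 0.274- to 1.14-fold. The log2 ratio of Egln3 to Egln1 went from -2.94 ± 0.89 to -3.20 ± 0.43, a difference of -0.27 (exact two-sided permutation p = 0.579).

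The split of Egln3 within saline moved with RNA of tissues other than alveolar lung, by lists chosen after its values were seen. Summed levels of 12 skeletal muscle genes, among them Acta1 and Ckm, were 3005, 4528 and 2059 CPM in saline replicates 1, 4 and 5, and 29.3 and 423 in replicates 2 and 3. Batch 2 replicate 2 had 1289 CPM, against 40.9 to 459 in the rest of batch 2. Squamous epithelium genes, 12 with Krt4, Krt13 and Krt5 among them, summed to 1949, 4027 and 3433 CPM in the saline libraries with high Egln3 and to 179 and 801 in the others. Batch 2 replicate 2 had 2217 CPM. None of these 24 genes passed between batch 1 bleomycin and saline in edgeR or DESeq2. At an unadjusted edgeR p under 0.05, 1 of the skeletal muscle genes and 0 of the squamous genes did. Heart muscle markers did not follow the split within saline, at 733 to 1161 CPM, while batch 2 replicate 2 had 3108 CPM against 122 to 1626 in the rest of batch 2. The 4 genes nearest to Egln3 over the libraries were Ppp1r3a, a muscle glycogen gene, at a root mean square difference of 0.42, Tuba4a at 0.45, and the desmosome gene Dsp and Sdr42e1 at 0.46 each. The part of muscle or squamous epithelium in the Egln3 level was not tested.

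**Figure D4:**
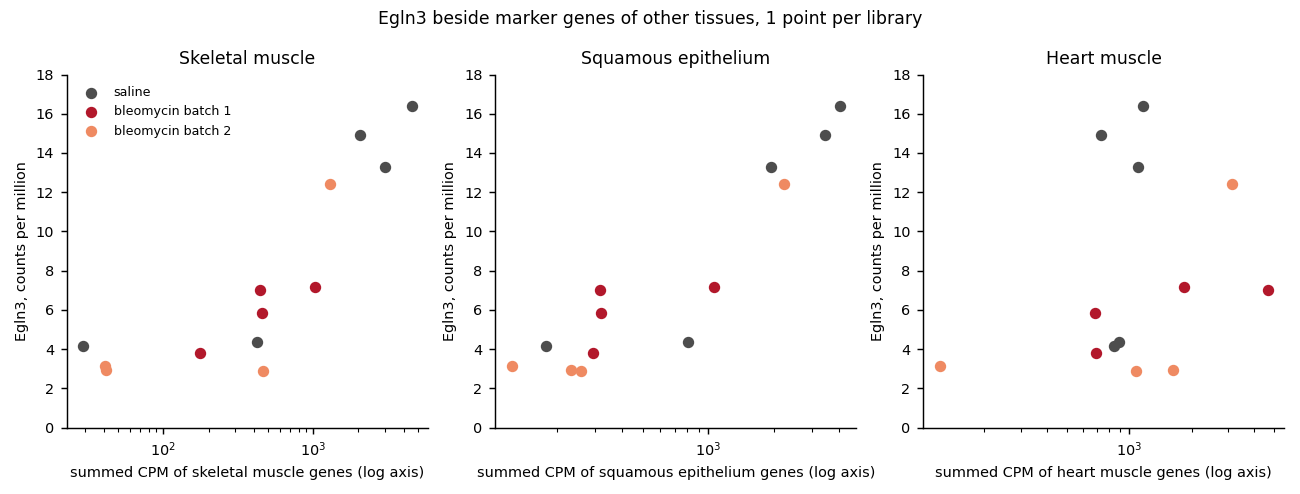
Egln3 in CPM (y axis) against the summed CPM of skeletal muscle, squamous epithelium and heart muscle genes (x axes, log scale), 1 point per library, for saline (grey), batch 1 bleomycin (red) and batch 2 bleomycin (orange). The 4 libraries with Egln3 of 12.4 CPM or more have skeletal muscle sums of 1289 or more, and their heart muscle sums run from 733 to 3108.

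Nearest to Hif3a were the serotonin receptor gene Htr1b (0.29), the sulfotransferase genes Sult1a1 (0.40) and Sult5a1 (0.42), and the smooth muscle actin gene Actg2 (0.43), where the median over all compared genes was 0.87. Of these 4, also picked for nearness over the same libraries, Sult1a1 fell (-0.68, edgeR adjusted p = 0.0445) and the others did not pass.

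Vhl, the recognition subunit of the ligase, read 18.2, 15.5, 15.8, 10.9 and 14.4 CPM in saline, 16.0, 17.4, 18.4 and 15.1 in batch 1 bleomycin, and 19.4, 12.9, 16.2 and 16.0 in batch 2. The groups overlapped, and the log2 change of 0.16 (SE 0.16, edgeR adjusted p = 0.479) did not pass, with an approximate 95% range of 0.902- to 1.38-fold. Its ligase partners Elob, Eloc, Cul2 and Rbx1 changed by 0.11, -0.23, 0.17 and -0.06, and 0 of the 4 passed in edgeR, also at an unadjusted p under 0.05, or in DESeq2.

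Hif1an read 70.6, 55.1, 72.8, 68.3 and 66.8 CPM in saline, 58.1, 59.5, 59.2 and 51.7 in batch 1 bleomycin, and 51.3, 66.5, 63.8 and 56.5 in batch 2. The groups overlapped, with only 1 library of each bleomycin batch below the lowest saline library, replicate 2. The log2 change of -0.23 (SE 0.10) did not pass in edgeR (adjusted p = 0.103). It passed without saline replicate 2 (-0.33, adjusted p = 0.0216), with RLE factors (0.0472), in DESeq2 (0.0373) and with protein-coding genes only (0.0413).

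Among further genes of the pathway, 1 of 6 coactivators rose, where 17.5% of all tested genes did. It was the pyruvate kinase gene Pkm (0.58, edgeR adjusted p = 0.0238). It did not pass without bleomycin replicate 8, where 1 coactivator fell. The acetyltransferase gene Ep300 gave -0.19 (adjusted p = 0.0838) and did not pass. RLE factors, DESeq2 and protein-coding genes only each gave 2 coactivators lower.

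Of 24 tested other regulators of HIF protein or activity, 3 rose and 4 fell (median 0.09), where 17.5% of all tested genes rose and 13.4% fell. Spsb1 rose by 1.18 (adjusted p = 0.00307 in edgeR), the deacetylase gene Sirt6 by 0.86 (adjusted p = 0.00966) and the signalosome subunit gene Cops5 by 0.36 (adjusted p = 0.0142). Cited2, which encodes a competitor for the coactivators, went from 38.8 ± 4.37 CPM in saline to 27.6 ± 2.27 in batch 1 bleomycin (-0.49, adjusted p = 0.00735). P4htm, a membrane prolyl hydroxylase gene, fell by 0.92 on the log2 scale (adjusted p = 0.0156), and Nampt and Sirt1 were the other two that fell.

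The other genes of the bHLH-PAS family, to which the HIF subunits and Arnt belong, held larger changes, and the largest that passed were in clock genes. Of 12 tested, 4 rose and 2 fell, where 17.5% of all tested genes rose and 13.4% fell. Arntl, the clock partner of Clock, went from 4.77 ± 1.06 CPM in saline to 30.8 ± 7.41 in batch 1 bleomycin (2.68, edgeR adjusted p = 7.78e-07). Npas2 rose by 2.05 on the log2 scale (adjusted p = 0.00108), while Per3 fell by 1.93 (adjusted p = 5.89e-06) and Per2 by 2.00 (adjusted p = 0.000411). In the same family 4 of 12 differed between the bleomycin batches, against 1.68% of all genes. From batch 1 to batch 2 bleomycin, Arntl fell by 1.40 on the log2 scale (edgeR adjusted p = 0.00372) and Npas2 fell by 2.00 (adjusted p = 0.0258). The Npas2 mean was 3.34 CPM in batch 2 and 3.31 in saline.

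**Figure D5:**
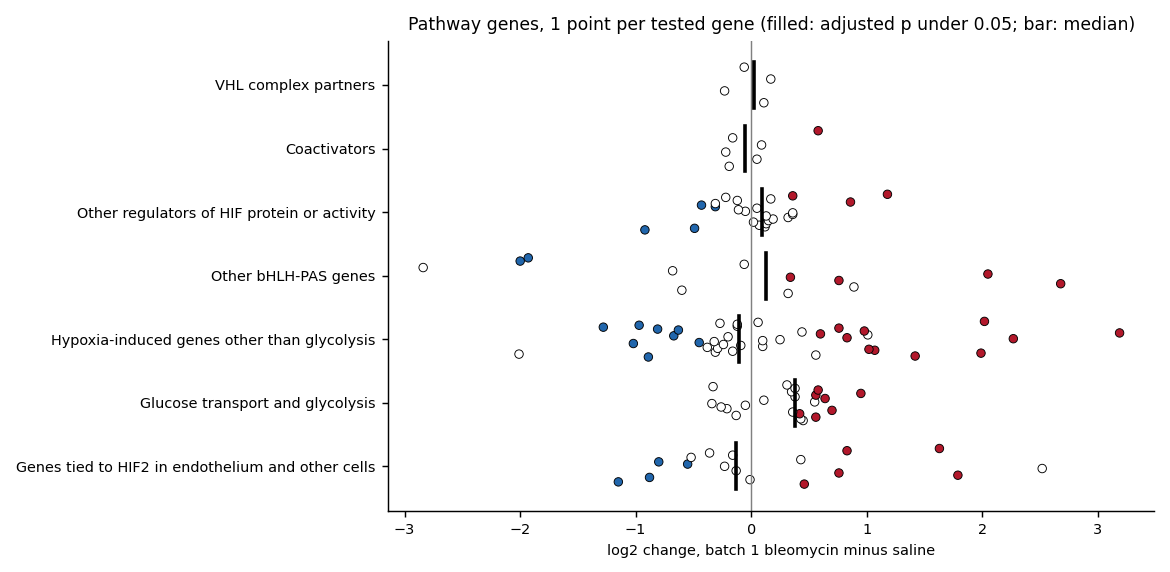
Log2 change between batch 1 bleomycin and saline (x axis) of each tested gene in 7 lists, 1 point per gene, red where it rose and blue where it fell at an adjusted p under 0.05, open where it did not pass, with the list's median as a bar. Glycolysis genes lie to the right with a median of 0.38, while hypoxia-induced genes spread from -2.01 to 3.19 around a median of -0.10.

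Genes known to be induced by hypoxia did not move in 1 direction. Of 38 outside glycolysis, 11 rose and 8 fell, where 17.5% of all tested genes rose and 13.4% fell. The median was -0.10 against 0.03 over all genes. Vegfa, the endothelial growth factor gene and a classic HIF target, fell from 939 ± 47.2 to 507 ± 159.6 CPM (-0.89, edgeR adjusted p = 0.000827) and read 528 in batch 2. The 4 genes of lowest p were Bhlhe41, which fell (-1.28, adjusted p = 1.68e-06) and belongs to the clock as well, Rora, which fell (-0.81, adjusted p = 6.18e-06), Cxcl12, which rose (0.98, adjusted p = 5.73e-05), and Nos2, which rose (3.19, adjusted p = 0.00012). Vegfa and the next 3 are exceptions to the rule of lowest p. The collagen cross-linking gene Lox rose (2.27, adjusted p = 0.00354), the lipid droplet gene Hilpda fell (-1.02, adjusted p = 0.00343), and adrenomedullin, Adm, rose in batch 1 (1.42, adjusted p = 0.00075) with a batch 2 minus batch 1 difference of -1.63 (adjusted p = 0.00929). The count that fell was 12 with RLE factors, 15 in DESeq2 and 15 of 37 with protein-coding genes only.

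Glucose transport and glycolysis genes had a median of 0.38, and 7 of 22 rose, where 17.5% of all genes did. They were Pfkp (0.70, edgeR adjusted p = 2.49e-05), Hk1 (0.56, adjusted p = 0.00133), Gpi1 (0.42, adjusted p = 0.0079), Pgam1 (0.56, adjusted p = 0.0196), Eno1, Pkm and Gapdh. Without bleomycin replicate 8, 4 rose. The glucose transporter gene Slc2a1 (0.45, adjusted p = 0.0791) and the lactate dehydrogenase gene Ldha (0.38, adjusted p = 0.0606), both textbook HIF-1 targets, did not pass. Aldoa, an enzyme gene abundant in muscle, read 308 ± 145 CPM in saline (SD, n = 5) and 243 ± 39.2 in batch 1 bleomycin (n = 4).

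Of 17 tested genes tied to HIF-2 in endothelium and other cells, 5 rose and 4 fell. Of all tested genes, 17.5% rose and 13.4% fell. The median of the list was -0.13, against 0.03 over all tested genes. Tek fell as given above, the growth factor gene Tgfa fell (-1.15, edgeR adjusted p = 0.000163), and the Notch ligand gene Dll4 fell from 43.2 ± 6.40 to 23.5 ± 7.05 CPM (-0.88, adjusted p = 0.00121). The adenosine receptor gene Adora2a rose (1.79, adjusted p = 0.000375), and so did Vwf (0.83, adjusted p = 0.00397), a gene of larger vessels whose level went from 325 ± 46.6 to 579 ± 185 CPM. Tek, Kdr, Flt1 and Cdh5 are in the pan-endothelial list too.

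Promoters were compared because Egln1 and Egln3 are known HIF targets while Egln1 fell where Hif1a rose. Windows of 300 bases around the start sites (250 before, 50 after) were searched on both strands for the core of the HIF site, ACGTG or GCGTG. On opposite strands ACGTG overlaps itself in CACGTG, the site of clock factors such as Arntl. The RefSeq table (GRCm38.p6) held 8 of the 9 genes, with no entry for Epas1, with 9 promoters between them. A core was in 7 of these 9 promoters (6 of the 8 genes) and in 43.8% of all 32851 promoters. Vhl and Hif1an had none. Egln2, whose batch 1 change did not pass, had the most, at 6 positions in 1 promoter and 1 in its other promoter. Its positions at -4 and -3 from the start site lie on opposite strands of the same CACGTG. For Hif1a, Egln1 and Egln3, 1 core each of the spelling ACGTG is given below in a 30-base window, with the core in capitals.
Hif1a, chr12:73907721-73907750, plus strand: acacagacaagcACGTGagcggggcagctc
Egln1, chr8:124949305-124949334, minus strand: gggccgtggtgtACGTGcagcgcgcgcgga
Egln3, chr12:54204086-54204115, minus strand: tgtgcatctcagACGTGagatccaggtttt
Counted from the start site, the printed cores begin at -134 in Hif1a, -68 in Egln1 and -229 in Egln3. Hif1a had further matches at -135 on the opposite strand and at -70, and Egln1 had a GCGTG at -126. The printed Hif1a core is preceded by C and so forms CACGTG. A match is a description of letters and not of a bound site.

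In GENCODE M21, exons of Hif1a overlap the antisense gene Gm15283, with 208 counts over all libraries against 26870 for Hif1a, and exons of Egln2 overlap Cyp2t4, with 13 against 9222. A pseudogene inside Arnt, Gm42672, had 640 against 28168. The protein-coding gene Gm49321, whose exons overlap Hif1a on the same strand, and AC096777.1, which lies at Epas1 without shared exons, were not analysed here. The kit keeps strand, but whether counting used it is not given in the sources used here.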

How the data were processed

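RNA counts of 13 mouse lung libraries were analysed. The authors deposited raw counts per gene symbol. The submitters' processing notes name cutadapt 4.4, STAR 2.7.10b, featureCounts 2.0.3 and build mm39, and leave out strand setting, molecular identifiers and annotation release. Small counts were mostly even (78.4% to 86.1% of those from 1 to 10), so a count may not be an independent molecule. The deposited normalized table was not used.

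Genes were filtered with filterByExpr over the 3 groups, scaled with TMM factors (0.853 to 1.12) and tested in edgeR 4.0.16 (R 4.3.3, glmQLFit robust, glmQLFTest), adjusted over 20468 genes and called under 0.05. The SE is the log2 change divided by the root of F. The fit was tested on simulated data. Ratios used log2 CPM with a prior count of 2. Alternatives were DESeq2 1.42.0, limma-voom (limma 3.58.1), RLE factors, no filter, protein-coding genes only, batch 1 only, bleomycin replicate 8 moved to saline, and each library left out. No library duplicated another of its treatment (chi-square over its degrees of freedom at least 10.1 in 38 pairs).

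Names, types and lengths came from GENCODE M21 (50671 of 54513 symbols matched), whose build differs from mm39, so coordinates are those of GRCm38 only. The genes and lists were chosen with earlier results of these data known. Named were all 9 genes, up to 4 genes of lowest p per list with exceptions, and the 4 genes nearest to Epas1, Hif3a and Egln3.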

Additional observations from a re-analysis of the deposited data

Results flagged for a closer look

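Egln3 in bleomycin batch 2 replicate 2 stood far from the other libraries of its group, at 12.4 CPM against 2.87 to 3.16. The gap to the nearest library was 0.971 of the group's range. It was the only such value in 27 sets of 1 gene and 1 group, and chance alone gives about 1 in 20 sets. The same library had the highest levels of skeletal muscle genes (1289 CPM summed), squamous epithelium genes (2217 CPM) and heart muscle genes (3108 CPM) of batch 2.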

How the results depend on the processing

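Over 20 alternatives, the treatment changes of Epas1 (-1.0 to -0.72) and Hif1a (0.84 to 1.19) kept their direction, and each lost its call only with bleomycin replicate 8 moved to saline (-0.72 and 0.84). That setting also left 645 genes called in all, Egln1 at -0.22, and the ratio of Epas1 to the pan-endothelial mean at -0.51. Arnt, Hif3a, Egln3 and Vhl kept direction and side in all 20. With libraries left out in turn, Egln1 ranged from -0.48 to -0.31, and Hif1an from -0.33 to -0.20, which passed without saline replicate 2. Hif1an also passed with RLE factors (-0.27), in DESeq2 (-0.27) and with protein-coding genes only (-0.28). Egln2, near 0, turned negative in 9 of 20: RLE factors -0.02, DESeq2 -0.02, protein-coding genes only -0.03, batch 1 libraries only -0.0043, replicate 8 moved -0.11, and a range of -0.09 to 0.12 with libraries left out. The count called by batch, 343, was 737 in DESeq2, 106 in limma-voom, 79 with protein-coding genes only and 148 to 1093 with libraries left out, the highest without bleomycin replicate 8. Batch differences near 0 changed sign: Arnt gave -0.05 without a filter and -0.01 with protein-coding genes only, and with libraries left out the ranges were -0.05 to 0.03 for Arnt, -0.01 to 0.11 for Epas1, -1.01 to 0.07 for Egln3, -0.16 to 0.03 for Vhl and -0.0049 to 0.12 for Hif1an. The cause of these changes was not tested. At these depths the treatment changes of Hif3a and Egln3 had SEs of 0.37 and 0.52, against 0.16 for Vhl. No paired analysis was possible because no label pairs a saline library with a bleomycin library.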
